A study of Mus musculus with 12 samples.

Results

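A group of 10 cardiac genes of the fetal gene program and the stress response was examined for acetylation of histone H3 at lysine 27 (H3K27ac), a mark of active promoters and enhancers, in adult cardiomyocytes (CMs) that had or lacked RIP140. The genes were *Nppa* and *Nppb*, *Myh6*, *Myh7* and *Myh7b*, *Acta1* and *Tnni1*, *Ankrd1* and *Xirp2*, and *Rcan1*. The regions that belonged to each gene were those overlapping its window, which was the GENCODE M21 gene body with 5 kb on each side (GRCm38 build). In the control list 27 of 53775 regions met this rule, and in the RIP140-deficient list 27 of 45535 did.

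H3K27ac was profiled by CUT&RUN, in which an antibody directs a nuclease to cut out the marked chromatin, in CMs from hearts of mice 10 to 12 weeks of age. Each experiment used 200000 CMs enriched by Langendorff perfusion and slow centrifugation. Every mouse carried floxed alleles of *Nrip1*, the gene of the corepressor RIP140. Controls (Nrip1 f/f Cre-) had no Cre and csNrip1-/- mice (Nrip1 f/f Cre+) expressed Nkx2.5-Cre, with 3 H3K27ac and 3 IgG replicates of each genotype. Nkx2.5-Cre acts from the embryonic heart onward, so the CMs had developed without RIP140, and the controls did not carry Cre, so that Cre and the deletion cannot be told apart. The files hold 1 list per genotype, of the regions that 2 or more of the 3 replicates shared, with no signal, read depth or value per replicate. A region present in 1 list and absent from the other, or wider in 1 list, is therefore a description of these 2 lists and could not be set against a replicate error, and no test was made. A change in signal inside a region found in both lists cannot be seen.

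The fetal gene program is the set of contractile, hormonal and metabolic genes that the heart uses before birth, turns down in the adult ventricle and turns on again under pressure or injury. Its best known marks are the natriuretic peptides and the change from alpha to beta myosin heavy chain in rodents. The stress genes at the Z-disc and the calcineurin inhibitor *Rcan1* respond to stretch and to calcium signals in the adult CM. H3K27ac is written by the acetyltransferases that coactivators recruit, whereas RIP140 recruits deacetylases.

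The lists held regions at markers of the labelled cell type, and also at markers of other cell types of the heart. All 6 CM markers (*Tnnt2*, *Ryr2*, *Actn2*, *Ttn*, *Pln* and *Tnni3*) had a region covering the gene start in both lists, and none of 4 genes of other organs had a region in its window. The median log2 ratio of covered length of the CM markers was 0.17. Past 1.5-fold, 1 was longer in csNrip1-/- (*Actn2*, 0.66) and 0 were shorter. The covered share of their windows ranged from 3.21% to 100% in control and from 4.28% to 100% in csNrip1-/-. Of 5 fibroblast markers, 2 had a control region and 1 a csNrip1-/- region, and 1 of 4 macrophage markers had a region in both lists (*Cd68*, 1173 bp in control and 4128 bp in csNrip1-/-). All 4 endothelial and 3 smooth muscle markers had a region in both lists, and 2 (*Cdh5* and *Tie1*) and 1 (*Acta2*) of them, respectively, were over 1.5-fold shorter in csNrip1-/-. The remaining endothelial markers were slightly longer (*Pecam1*, log2 ratio 0.32, and *Kdr*, 0.31), as were the smooth muscle markers *Cnn1* (0.22) and *Myh11* (0.01). The covered share of the endothelial windows ranged from 8.65% to 31.4% in control and from 3.3% to 39.2% in csNrip1-/-. That of the smooth muscle windows ranged from 7.04% to 21.6% and from 6.01% to 8.93%. Fewer nuclei of a cell type and less mark per nucleus cannot be told apart in such data, and the part of other cells in the results was not tested. The last exon of *Nrip1* held 2904 bp of control regions and 0 bp of csNrip1-/- regions.

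In the 10 windows the csNrip1-/- list covered more sequence than the control list, through regions added at *Nppb*, *Nppa*, *Myh7b*, *Tnni1* and *Rcan1* and through wider regions at the *Myh7* promoter and within *Ankrd1*, *Xirp2* and *Rcan1*. *Myh6* was the exception, with less sequence covered in csNrip1-/-. *Acta1* had no region in either list. Counted once where windows overlap, the 370784 bp of the windows held 79794 bp of control regions (21.5%) and 99365 bp of csNrip1-/- regions (26.8%), a log2 ratio of 0.32. The largest differences were those of *Rcan1* (8057 bp more in csNrip1-/-) and *Xirp2* (3751 bp more), the genes with the longest windows. Over the whole genome, in gene windows or not, the log2 ratio of covered length was 0.03. Over all protein-coding gene windows covered in both lists the median log2 ratio was 0.08, a median over genes and not a ratio of summed lengths. The gain in summed length was not particular to the 10 genes. Among the CM markers, *Actn2* had 33783 bp in control and 53473 bp in csNrip1-/-, and *Ryr2* 18112 bp and 24112 bp. *Tnnt2* had 13037 bp and 14814 bp, and *Tnni3* 11072 bp and 12262 bp. *Pln* had 18321 bp in both lists, and *Ttn* had less in csNrip1-/- (16233 bp and 14585 bp).

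Of the csNrip1-/- regions, 9 of 27 overlapped no control region (33.3%, 95% Wilson interval 18.6% to 52.2%), where the share over all csNrip1-/- regions was 21.5%. Of the control regions, 5 of 27 overlapped no csNrip1-/- region (18.5%, 8.18% to 36.7%), where the share over all control regions was 29.5%. The intervals cover the counting of regions only, and each held the share of the whole list. They treat the regions as independent, although *Xirp2* and *Rcan1* each held 8 of the 27 control regions, and they are not a test. The regions found in 1 list were narrow and rested on few calls. The median width was 1054 bp for the 9 regions found in csNrip1-/- only and 2464 bp for all 27, beside 1279 bp and 2291 bp over the whole list. Each region was merged from calls in single replicates, and the number in its name was taken as their count. Of these 9 regions, 8 rested on 2 calls, the fewest possible. The exception was the region at *Nppb*, which rested on 3. A replicate can give several calls (a region at *Rcan1* had 7), so 3 calls need not come from 3 replicates. Over the whole list, 12.2% of the csNrip1-/--only regions rested on 3 or more calls. All 5 control-only regions rested on 2 calls.

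Counted by gene, 7 of 10 windows had at least 1 csNrip1-/--only region (23.2% of all protein-coding gene windows had one) and 5 of 10 had a control-only region (25.8% of all). The shares over all genes include windows with no region in either list, which were 34.2% of all and 1 of the 10. The median covered share in control was 21.1% for the 10 windows and 5.05% for all. Long windows hold more regions. The median window of the 10 genes was 33519.5 bp, and that of all 21938 protein-coding genes 27425 bp. *Xirp2* and *Rcan1* had the longest windows of the 10, 90613 bp and 88915 bp. Of the 10 genes, 7 were covered in both lists. Of these 7, 6 (85.7%) had more sequence covered in csNrip1-/-, where 58.1% of the 12989 genes covered in both lists did. The median log2 ratio of covered length was 0.22 for the 7 genes, 0.17 for the 6 CM markers and 0.08 for all 12989. This count depended on the sequence included. With the gene body alone, 6 genes were covered in both lists, 3 of them with more (*Ankrd1*, *Xirp2* and *Rcan1*) and 3 with less sequence covered in csNrip1-/- (the myosin genes). Within 2 kb of the annotated transcription starts the split was again 3 and 3, with *Myh7*, *Myh7b* and *Ankrd1* longer and *Myh6*, *Xirp2* and *Rcan1* shorter. Past 1.5-fold, 1 of 7 genes was longer in csNrip1-/- (*Tnni1*), where 16.3% of all genes were, and 0 of 7 were shorter, where 8.6% were.

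**Figure D1:**
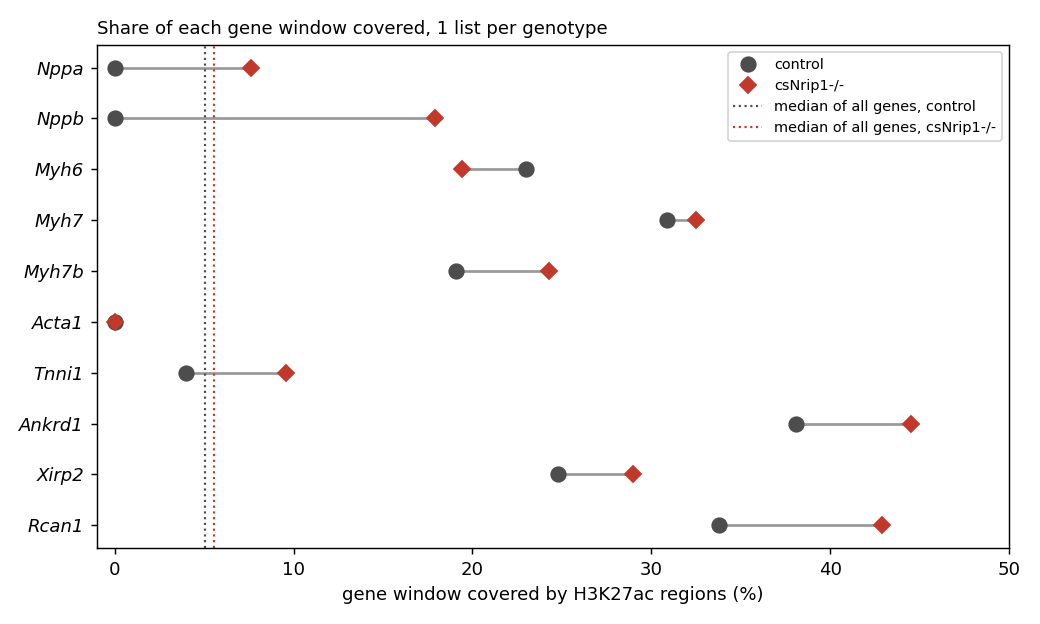
Share of each gene window (gene body and 5 kb on each side, in %) covered by H3K27ac regions in control (grey circles) and csNrip1-/- (red diamonds) CMs, 1 list per genotype and so without error bars, with dotted lines at the medians of all protein-coding genes (5.05% and 5.56%). The red diamond lies to the right of the grey circle at 8 genes, to its left at *Myh6*, and on it at *Acta1*, where both are at 0%.

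*Nppa* and *Nppb* encode the atrial and B-type natriuretic peptides, hormones that the heart releases under stretch and that lower blood volume and pressure. The genes are neighbors on chromosome 4 and are transcribed in the same direction. Neither window had a control region, and each had 1 csNrip1-/- region. A window with a csNrip1-/- region and no control region was found for 2 of the 10 genes, these 2, and for 3.39% of all protein-coding genes. The opposite was found for 0 of 10 and for 3.24% of all. Of 12 skeletal muscle genes listed as a low reference, 3 had a csNrip1-/- region only and 1 a control region only. None of the windows of the adult and other isoform partners, other stress genes and regulators listed below was covered in 1 list only.

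The region at *Nppb* was 2042 bp wide (chr4:147985303-147987344). It reached from -485 to 1556 bp relative to the gene start and thus held the promoter, the whole gene of 1418 bp and its 781 exonic bases. The covered share of the *Nppb* window was 0% in control and 17.9% in csNrip1-/-, and 75.9% of all protein-coding genes had a smaller share in csNrip1-/-. *Nppb* was the only one of the 10 genes whose annotated start was covered in csNrip1-/- and not in control (5.9% of all genes were), while 5 of 10 starts were covered in both lists (41.1% of all genes). The nearest control region to the RefSeq start of *Nppb* was 19278 bp away. Expression was not measured in these data, so the region does not show that *Nppb* was transcribed more. In unstressed hearts of mice lacking RIP140 in striated muscle, the paper reported no rise of *Nppa* or *Nppb* transcripts.

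The region at *Nppa* was 866 bp wide (chr4:148003965-148004830), narrower than all but 7.13% of the csNrip1-/- list. It lay 3243 to 4108 bp past the gene start, beyond the end of the gene, over the start of the antisense gene *Gm13054* and the last part of *Clcn6*, a chloride transporter gene on the other strand. It could thus be counted with any of the 3 genes. The *Nppa* start was not covered in either list. The nearest control region was 34100 bp away from it and the nearest csNrip1-/- region 3243 bp away.

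A much larger region upstream of *Nppb* was present in both lists. It was 6575 bp wide in control and 7500 bp in csNrip1-/-, and its near edge lay at -19166 bp in control and -18292 bp in csNrip1-/- from the *Nppb* start. From this region to the end of the *Nppa* window there was no control region.

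**Figure D2:**
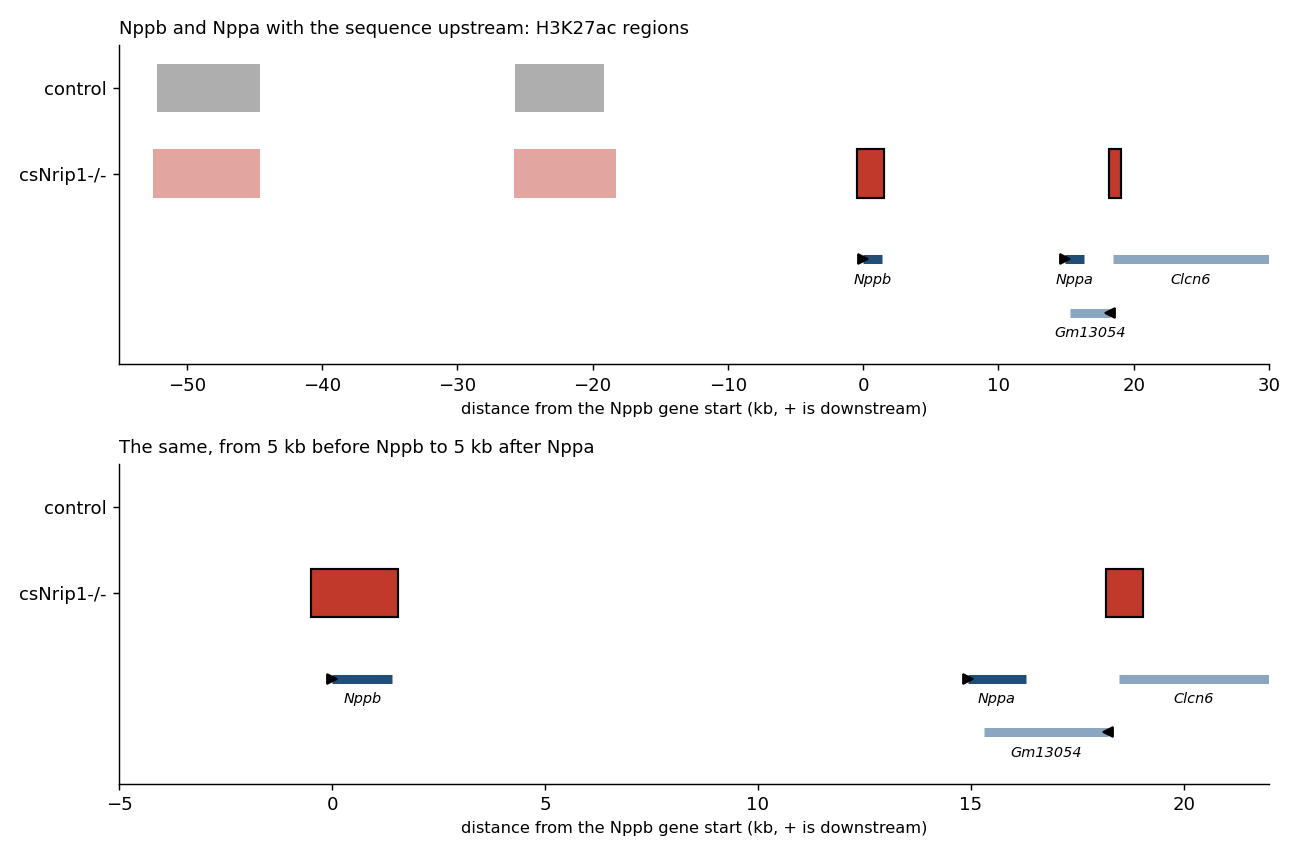
H3K27ac regions around *Nppb* and *Nppa* in control (grey, upper row) and csNrip1-/- (red, lower row) CMs against the distance from the *Nppb* gene start in kb with the upstream regions (upper panel) and close to the genes (lower panel). Outlined dark boxes overlap no region of the other list, pale boxes do, and arrowheads mark gene starts. The 2042 bp box at *Nppb* and the 866 bp box past *Nppa* have no control box above them.

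The promoter sequences of the hormone pair (GRCm38, + strand, up to the base before the annotated gene start) are shown because the mark was listed on the *Nppb* one in csNrip1-/- and on the *Nppa* one in neither list. The *Nppb* sequence is chr4:147985650-147985787 and the *Nppa* sequence chr4:148000572-148000721.
Nppb: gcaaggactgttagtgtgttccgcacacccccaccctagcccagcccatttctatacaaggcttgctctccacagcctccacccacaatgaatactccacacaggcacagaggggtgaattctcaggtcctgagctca
Nppa: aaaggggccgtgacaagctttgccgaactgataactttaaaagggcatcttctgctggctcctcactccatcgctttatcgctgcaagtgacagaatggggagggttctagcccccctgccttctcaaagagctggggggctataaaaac
In all, 5 motifs of cardiac transcription factors were searched on both strands here and in all regions. They were the letters AGATAA of the GATA factors, the element TCAAGGTCA of the estrogen-related receptors (ERR), the letters ACATTCC of the TEAD factors, the MEF2 consensus and the CArG box bound by SRF. None of the 5 was found in these stretches, and no printed match shares a base with another. The csNrip1-/- region at *Nppb* held 3 GATA matches within annotated exons and 1 TEAD match at -278 bp (chr4:147985510-147985516, written on the + strand, in capitals). The RefSeq start of *Nppb* lies downstream of the GENCODE start, at base 147985900, and 1 of the GATA matches (chr4:147985816-147985821) lies in the 250 bases before it, so that the *Nppb* promoter as RefSeq places it holds a GATA match.
Nppb TEAD match: gtgttgtttgGGAATGTtttccatgag

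The myosin heavy chains are the motors of the thick filament. *Myh6* encodes the fast alpha chain of the adult mouse ventricle and *Myh7* the slow beta chain of the fetal ventricle. They lie head to tail on chromosome 14, *Myh7* upstream of *Myh6*, with the antisense long noncoding RNA *Mhrt* over the end of *Myh7*. *Myh7b* encodes a related slow chain on chromosome 2. Their windows were all covered in both lists, with 8056 bp in control and 6774 bp in csNrip1-/- at *Myh6* (log2 ratio -0.25), 10488 bp and 11027 bp at *Myh7* (0.07), and 6333 bp and 8032 bp at *Myh7b* (0.34).

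The main region of the *Myh6* and *Myh7* pair was shared by the lists, with 7496 bp in control (wider than 94% of the list) and 7057 bp in csNrip1-/- (wider than 90.6%). It reached from the last part of *Myh7* over the start of *Mhrt* to the start of *Myh6*, and counts in both windows. Of *Mhrt*, 4046 bp were covered in control and 4474 bp in csNrip1-/-. In csNrip1-/- its reach into *Myh6* decreased by 867 bp. Past this edge each list held a region that the other did not. Control had one of 1356 bp (chr14:54962126-54963481, 3446 to 4801 bp past the *Myh6* start), and csNrip1-/- one of 941 bp (chr14:54963668-54964608, 2319 to 3259 bp). The list-only regions of *Myh6* were thus neighbors that did not overlap. Counted within the *Myh6* gene body alone, the log2 ratio of covered length was -0.78.

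At the *Myh7* start the order was the opposite. The promoter region was 1107 bp in control and 2534 bp in csNrip1-/- (chr14:54993083-54995616), a ratio of 2.29, and it was extended by 605 bp upstream and 822 bp downstream. It rested on 2 calls in each list. The region upstream of it was 961 bp in control and 1436 bp in csNrip1-/-, a ratio of 1.49 that lies just under 1.5-fold. Inside the gene, a control region of 1380 bp (chr14:54989289-54990668) within the antisense gene *Gm31251* had no counterpart in csNrip1-/-. Over the whole window these differences nearly cancelled, whereas within 2 kb of the annotated *Myh7* starts the log2 ratio was 0.80. *Myh6* and *Myh7* share sequence, and 7.24% of the 40-base stretches of *Myh6*, the length of the reads, were found in *Myh7*, so that part of the gene bodies cannot be told apart by single reads.

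**Figure D3:**
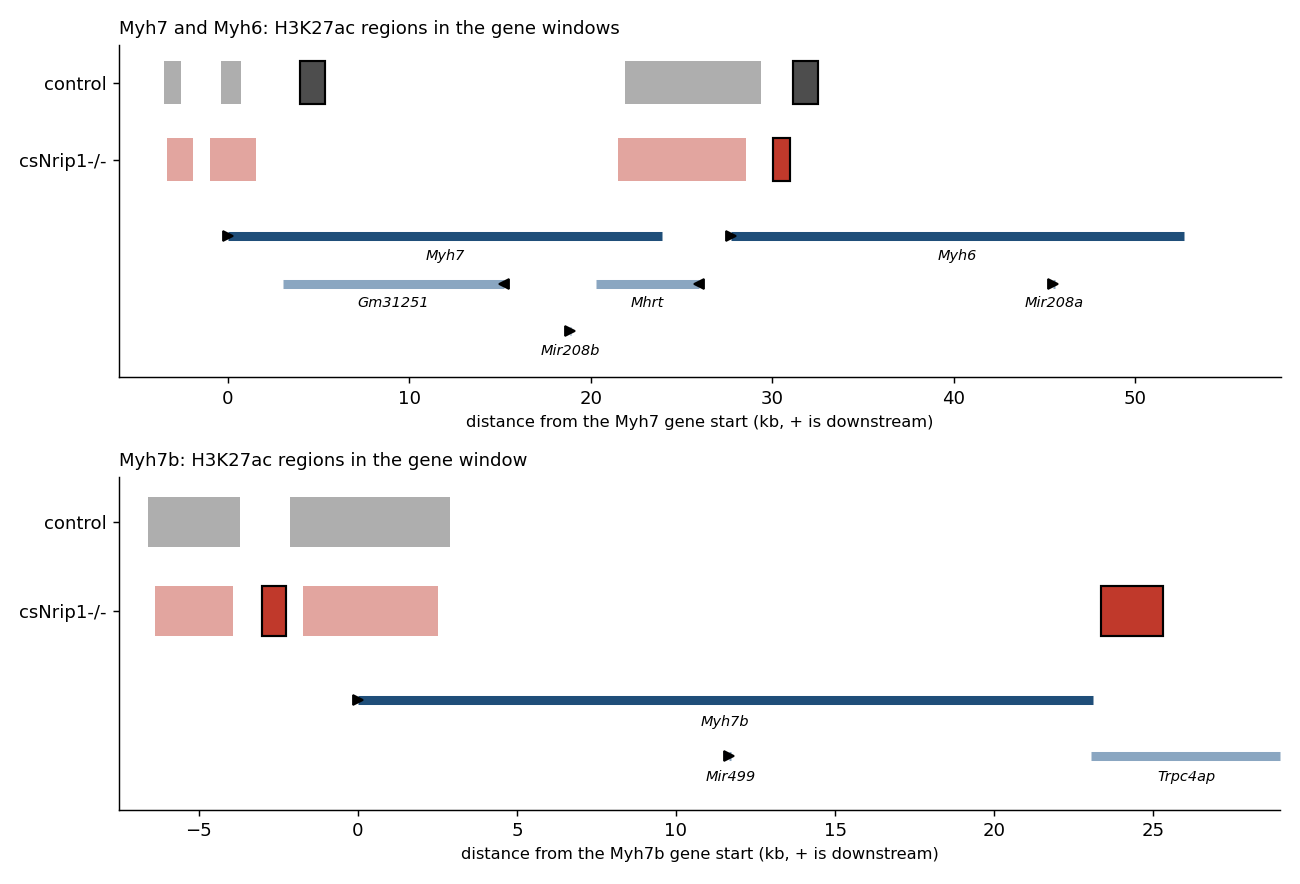
H3K27ac regions in the windows of *Myh7* and *Myh6* (upper panel) and of *Myh7b* (lower panel) in control (grey) and csNrip1-/- (red) CMs against the distance in kb from the *Myh7* or *Myh7b* start, drawn in the direction of transcription. Outlined dark boxes overlap no region of the other list, and arrowheads mark the starts of genes and miRNAs. The pale box at the *Myh7* start is wider in csNrip1-/- (2534 bp) than in control (1107 bp), and *Myh7b* has 2 outlined boxes in csNrip1-/- only.

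At *Myh7b* the region over the gene start (5024 bp in control, 4242 bp in csNrip1-/-) and the one upstream of it (2907 bp and 2464 bp) were narrower in csNrip1-/-. The longer cover of the window came from 2 csNrip1-/--only regions, of 754 bp between these (chr2:155608205-155608958) and of 1947 bp past the end of the gene (chr2:155634571-155636517). The second lies within *Trpc4ap*, a neighboring gene on the other strand. Without the flanks the log2 ratio of *Myh7b* was -0.21. The promoter (chr2:155611062-155611211, + strand) is shown because it held matches to both GATA and ERR, in capitals, the ERR match on the opposite strand and starting 15 bases before the end of the sequence. It was covered in both lists.
Myh7b: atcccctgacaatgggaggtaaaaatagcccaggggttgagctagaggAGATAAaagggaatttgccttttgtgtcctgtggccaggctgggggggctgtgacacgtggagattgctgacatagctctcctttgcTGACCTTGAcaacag
The 1947 bp csNrip1-/--only region also held the ERR element (chr2:155634997-155635005, + strand).
Myh7b ERR match past the gene: gaagcctggcTCAAGGTCActcctcagtg
Of all 32851 RefSeq promoters (the 250 bases before the start), 0.387% held the ERR element and 9.99% the GATA motif.

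Each of these myosin genes carries a miRNA in an intron, and these miRNAs regulate the balance of fast and slow myosins. The mature sequences from RefSeq (GRCm38) are shown with the seed, bases 2 to 8, in capitals. The seeds of miR-208a and miR-208b are identical (UAAGACG), and that of miR-499 is a different one (UAAGACU).
mmu-miR-208a-3p: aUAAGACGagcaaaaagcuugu
mmu-miR-208b-3p: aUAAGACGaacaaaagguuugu
mmu-miR-499-5p: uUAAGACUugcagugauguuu
No region of either list covered a miRNA hairpin. The nearest region was 13025 bp away in control and 14567 bp in csNrip1-/- for *Mir208a*, 3015 bp and 2587 bp for *Mir208b*, and 8802 bp and 9190 bp for *Mir499*.

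*Acta1* encodes skeletal alpha-actin and *Tnni1* slow skeletal troponin I, thin filament isoforms of the fetal heart that cardiac actin and *Tnni3* replace after birth. The window of *Acta1* had no region in either list, as 34.2% of all protein-coding gene windows had none. The nearest region to the *Acta1* RefSeq start was 21751 bp away in control and 21302 bp in csNrip1-/-, toward *Ccsap*. The sequence before the gene (chr8:123894776-123894925, - strand) is shown because, without any listed mark, it held a CArG box and a TEAD motif, in capitals, starting 73 and 47 bases before its end.
Acta1: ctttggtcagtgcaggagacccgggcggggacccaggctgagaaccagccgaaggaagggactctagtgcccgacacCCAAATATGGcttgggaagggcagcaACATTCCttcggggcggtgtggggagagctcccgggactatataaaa
The CArG box was found in 1.47% of all RefSeq promoters and the TEAD motif in 3.25%.

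*Tnni1* had the largest ratio of the 7 genes covered in both lists. Its window held 1646 bp of control regions (3.96%) and 3969 bp of csNrip1-/- regions (9.55%), 2.41-fold more, a ratio above that of 96.3% of all genes covered in both lists. The region in both lists, upstream of the gene, was small (1019 bp in control, 1203 bp in csNrip1-/-). The difference came from csNrip1-/--only regions of 1054 bp in an intron (chr1:135793982-135795035) and of 1712 bp past the gene (chr1:135812112-135813823), the latter nearer to the start of *Lad1* than to a start of *Tnni1*. Against these stood a control-only region of 627 bp before the gene start (chr1:135778413-135779039), narrower than all but 2.79% of the control list. The RefSeq start of *Tnni1*, within the GENCODE gene body, was not covered in either list, and was 20382 bp from the nearest control region and 4386 bp from the nearest csNrip1-/- region. Within the gene body *Tnni1* had no control region, and within 2 kb of its annotated starts it had no csNrip1-/- region, so that its ratio rests on the regions in the intron and past the gene. The genes with the most similar pair of covered shares in control and csNrip1-/- were *E130218I03Rik*, *Rasa4* and *Casc3*, at 0.15, 0.185 and 0.202 percentage points from *Tnni1* over the 2 lists.

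*Ankrd1*, a stretch-responsive ankyrin repeat protein of the sarcomere and nucleus, and *Xirp2*, an actin-binding protein of the Z-disc and intercalated disc, are induced in stressed CMs. *Ankrd1* had the highest share of its window covered among the 10 genes in both lists, 38.1% (6907 bp) in control and 44.5% (8072 bp) in csNrip1-/-. Its promoter region was 4928 bp in control (4 calls) and 8072 bp in csNrip1-/- (3 calls), a ratio of 1.64. In csNrip1-/- it was extended by 363 bp upstream and 2781 bp into the gene. Control also had a region of 1979 bp at the end of the gene (chr19:36110128-36112106) that csNrip1-/- did not have. Within the gene body alone the log2 ratio was 0.72, and over the window 0.22. The extension brought in an ERR element in an exon, 5106 bp past the gene start (chr19:36114985-36114993, written on the - strand).
Ankrd1 ERR match: ggtgcggaccTCAAGGTCAagaactgtgt

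*Xirp2* spans 80613 bp, and its window held 8 control regions (22514 bp, 24.8%) and 6 csNrip1-/- regions (26265 bp, 29%), a log2 ratio of 0.22. Near the start the regions were narrower in csNrip1-/-, with 3997 bp in control and 3805 bp in csNrip1-/- at the start and 3049 bp and 2384 bp in the sequence that follows. Further into the gene, the regions were wider or joined in csNrip1-/-. A region 46637 bp past the start was 1105 bp in control and 3430 bp in csNrip1-/- (chr2:67492639-67496068), 3.1-fold wider and extended almost wholly downstream. Next to it, regions of 1282 bp and 6053 bp in control were a single region of 10311 bp in csNrip1-/- (chr2:67498132-67508442), a ratio of 1.41 in covered length and wider than 95.8% of the list. Regions of 3317 bp and 3005 bp in control were likewise joined into one of 5597 bp, with less sequence covered in all (ratio 0.885). The antisense gene *Gm13601* overlaps the part of *Xirp2* with the wider regions, and 8440 bp of it were covered in control and 13741 bp in csNrip1-/-. Each list also held a narrow region of its own in the middle of the gene, of 706 bp in control (chr2:67473619-67474324) and of 738 bp in csNrip1-/- (chr2:67472046-67472783). Within 2 kb of the annotated starts the log2 ratio of *Xirp2* was -0.09.

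The promoter of *Xirp2* (chr2:67445852-67446001, + strand), covered in both lists, is shown because it was the only one of the 10 with a match to the MEF2 consensus (in capitals, starting 74 bases before the start), which 0.508% of all RefSeq promoters held.
Xirp2: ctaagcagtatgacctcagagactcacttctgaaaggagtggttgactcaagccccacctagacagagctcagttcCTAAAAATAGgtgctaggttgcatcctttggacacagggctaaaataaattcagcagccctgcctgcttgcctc
Another MEF2 match lay in the sequence that the 3430 bp region covered in csNrip1-/- only (chr2:67494241-67494250, + strand).
Xirp2 intronic MEF2 match: atcaatttctCTAAAATTAGaatgttcatg

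*Rcan1* encodes regulator of calcineurin 1, an inhibitor of the phosphatase that activates NFAT, and its short isoform is itself induced by calcineurin. Its 88915 bp window had the most sequence covered, 30094 bp (33.8%) in 8 control regions and 38151 bp (42.9%) in 7 csNrip1-/- regions, a log2 ratio of 0.34. The RefSeq starts of the long and the short isoform were both covered in both lists. The region at the long isoform's start was 3206 bp in control and 2862 bp in csNrip1-/-, and that at the short isoform's start 7393 bp and 7958 bp. Thus the regions at the starts accounted for little of the added length, and within 2 kb of the annotated starts the log2 ratio was -0.05. Most of the added length lay between the 2 starts, in introns. Control regions of 2114, 688 and 10997 bp were covered by a single csNrip1-/- region of 15668 bp (chr16:92423257-92438924), wider than 98.5% of the list, which reached 2075 bp further upstream and whose downstream reach decreased by 1564 bp. Next to it, a region of 2886 bp in control was 5892 bp in csNrip1-/- (chr16:92440517-92446408), a ratio of 2.04. A csNrip1-/--only region of 2370 bp lay further downstream (chr16:92415255-92417624). The extended part of the 5892 bp region held a CArG box (chr16:92441950-92441959, written on the - strand).
Rcan1 CArG match: attcaaattaCCTATTTTGGgcatgtgttg

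**Figure D4:**
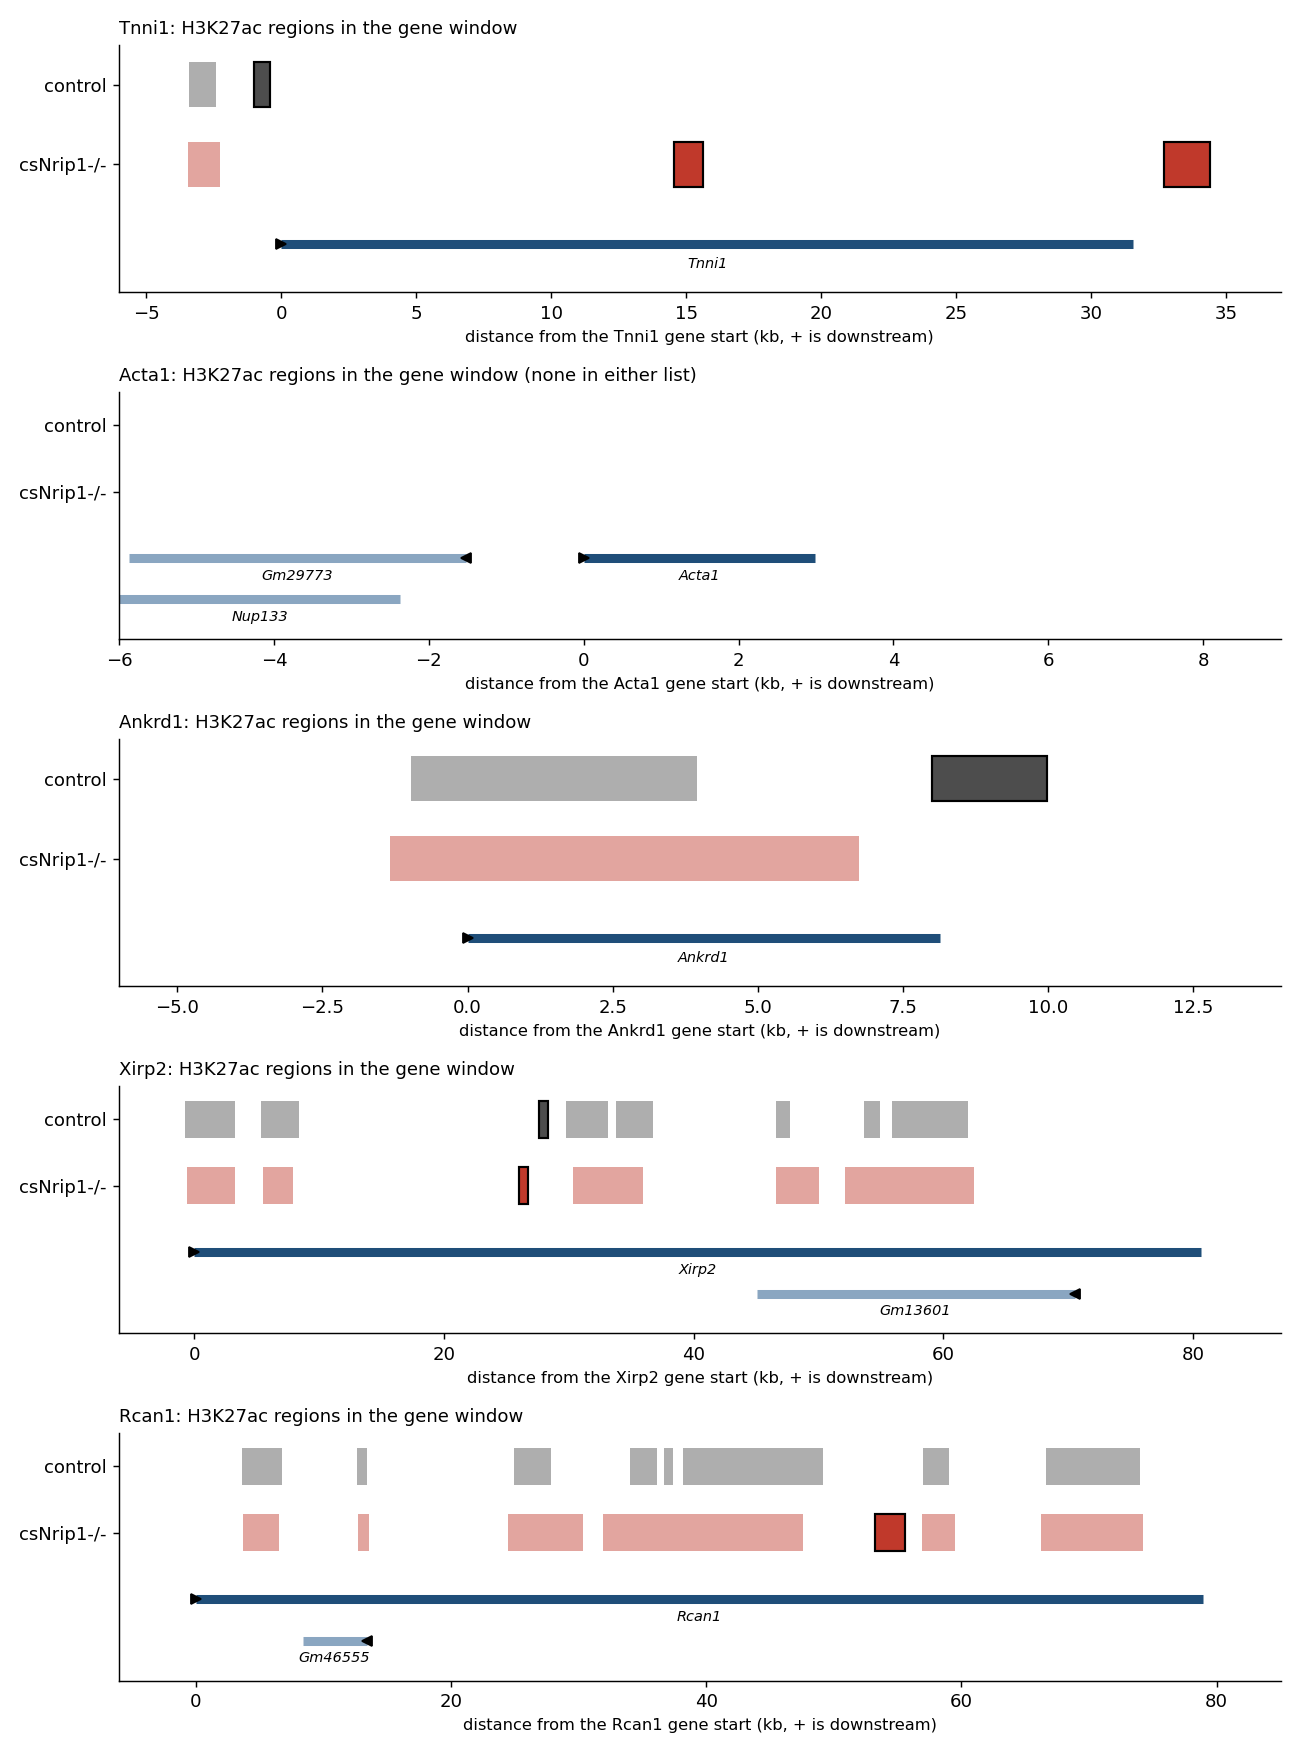
H3K27ac regions in the windows of *Tnni1*, *Acta1*, *Ankrd1*, *Xirp2* and *Rcan1* in control (grey) and csNrip1-/- (red) CMs against the distance in kb from each gene start, drawn in the direction of transcription. Outlined dark boxes overlap no region of the other list. *Acta1* has no box, and at *Rcan1* 3 grey boxes stand over 1 red box of 15668 bp.

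The windows held 18 loci covered in both lists. Of these, 4 were over 1.5-fold longer in csNrip1-/- (at *Myh7*, *Ankrd1*, *Xirp2* and *Rcan1*), where 17.3% of all 32649 shared loci were, and 0 were over 1.5-fold shorter, where 10.3% were. Of any size, 11 of 18 were longer (61.1%, and 57.4% of all shared loci) and 7 shorter. The median log2 ratio was 0.14 for the 18 loci and 0.08 for all. The loci just past and just under 1.5-fold were the *Ankrd1* promoter (1.64) and the *Myh7* upstream region (1.49). A csNrip1-/- region joined 2 or more control regions in 3 of 27 cases (9.65% of the whole list did), all in *Xirp2* and *Rcan1*, and no control region joined csNrip1-/- regions (5.16% of the whole list did). The longer loci were at the start of a gene only for *Myh7* and *Ankrd1*, and within introns for the others.

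**Figure D5:**
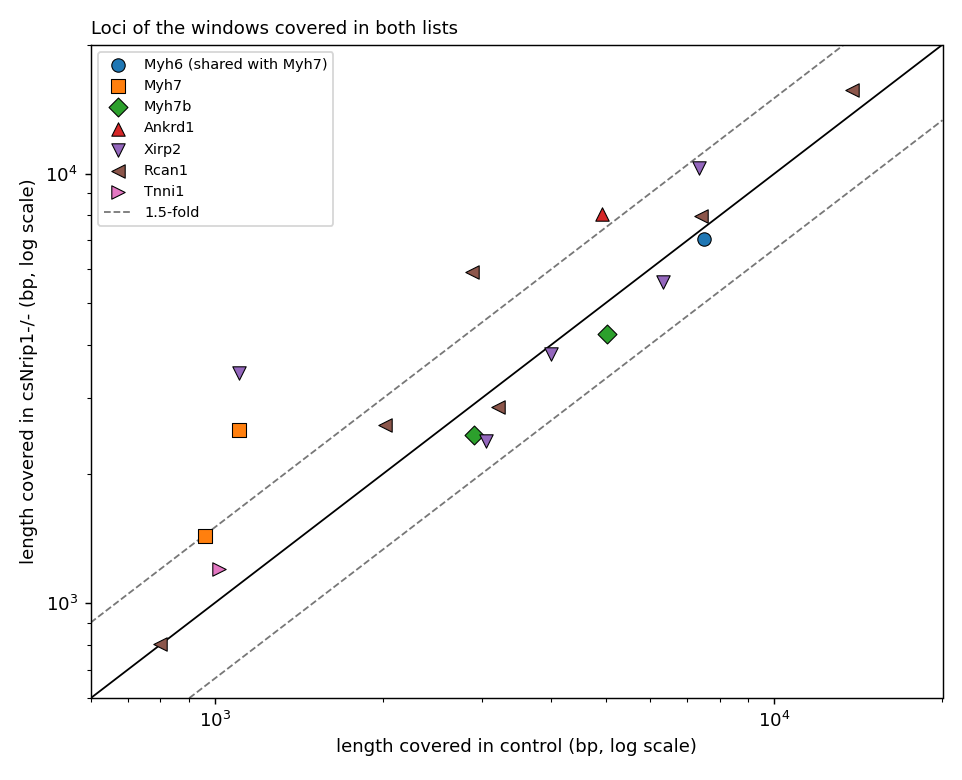
Length covered in control (horizontal) and csNrip1-/- (vertical) at the 18 loci covered in both lists, in bp on log axes, 1 symbol per locus with the gene given by its shape and color. The solid line marks equal lengths and the dashed lines 1.5-fold, and 4 loci lie above the upper dashed line while none lies below the lower one.

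The GATA and TEAD motifs were about as dense in the member regions as in the whole lists. GATA matches were found at 5.53 per 10 kb of the 27 control regions and at 5.36 per 10 kb of the 27 csNrip1-/- regions, beside 6.61 and 6.44 over all regions. The TEAD motif was found at 1.84 and 1.69 per 10 kb, beside 1.56 and 1.55. The MEF2 consensus, the CArG box and the ERR element were rare, with 2, 4 and 1 matches in the control regions and 3, 6 and 3 in the csNrip1-/- regions. In the control regions these came to 0.246, 0.491 and 0.123 per 10 kb, beside 0.379, 0.561 and 0.327 over the whole list. In the csNrip1-/- regions they came to 0.298, 0.596 and 0.298 per 10 kb, beside 0.361, 0.549 and 0.336. The lower density of the ERR element in the control regions rests on 1 match. Besides those shown above, a CArG box lay in the csNrip1-/--only part of the *Myh7* upstream region (chr14:54997021-54997030, written on the - strand).
Myh7 CArG match: tctgtccaggCCTTATTTGGtcgacctcag
The matches printed outside the promoter sequences all lay in sequence covered in csNrip1-/- only, and others were not printed. Covered in both lists were another intronic MEF2 match of *Xirp2* (chr2:67493067-67493076) and CArG boxes of *Xirp2* and *Rcan1*. Covered in control only were, among others, TEAD matches at *Myh7* (chr14:54990094-54990100) and *Ankrd1* (chr19:36110754-36110760) and GATA matches at *Myh6*. A match describes the sequence only, and no factor's binding was measured.

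Lists of related genes give the setting, without a test. The adult and other isoform partners mostly differed little, with a median log2 ratio of 0.13 over 14 of 15 genes covered in both lists. They include skeletal, smooth muscle and atrial isoforms besides those of the adult ventricle. Over 1.5-fold longer in csNrip1-/- was 1 gene (*Mybpc3*, cardiac myosin-binding protein C, 4670 bp in control and 9215 bp in csNrip1-/-, log2 ratio 0.98). Over 1.5-fold shorter were 2 genes, *Tnni2* (fast skeletal troponin I, 3456 bp and 1416 bp, -1.29) and *Acta2* (smooth muscle actin, 5289 bp and 1472 bp, -1.85), and *Acta2* also is one of the smooth muscle markers. *Tnni3*, the adult partner of *Tnni1*, had 11072 bp in control and 12262 bp in csNrip1-/- (0.15). *Actc1*, the cardiac actin that stands in for *Acta1*, had 10001 bp and 10227 bp (0.03). The atrial light chain gene *Myl7* had no region in either list.

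Of 26 other stress response genes, 21 were covered in both lists, with a median log2 ratio of 0.11. Of these, 3 were over 1.5-fold longer in csNrip1-/- and 0 shorter, beside 16.3% and 8.6% of all genes covered in both lists. The highest ratios were those of *Ankrd23*, a relative of *Ankrd1* (2415 bp and 8318 bp, 1.78), and *Cryab*, the small heat shock protein alpha B-crystallin (6114 bp and 10841 bp, 0.83). The lowest were those of *Fhl1* (-0.33) and *Ccn2* (-0.19). The gene of the C-type natriuretic peptide, *Nppc*, had no region in either list, nor did *Sln*, an atrial calcium pump inhibitor. All 25 regulators of the fetal program were covered in both lists, with a median log2 ratio of 0.07. Of these, 1 was over 1.5-fold longer, *Smarca4* (the chromatin remodeler BRG1, 4147 bp and 8378 bp, 1.01). Another 1 was over 1.5-fold shorter, *Ppp3ca* (the calcineurin catalytic subunit that *Rcan1* inhibits, 77733 bp and 48015 bp, -0.70). Of 12 skeletal muscle genes, 4 had a control and 6 a csNrip1-/- region, and 3 had a csNrip1-/- region only and 1 a control region only.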

How the data were processed

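H3K27ac and IgG CUT&RUN libraries were made from CMs of control and csNrip1-/- mice (3 per genotype and antibody, 12 samples, grouped by the genotype and antibody labels). The labels call the replicates biological and do not say whether animals were pooled. The authors aligned the 40-base read pairs to GRCm38 (Bowtie2 2.4.2 and HOMER 4.11.1, per the submitters' processing notes), removed duplicates with samtools, called regions per replicate against IgG in the histone style and merged them, keeping those in at least 2 of 3 replicates. The deposited lists give the start and end of each region and a score, which the authors left at 1 in every row and which was not used. The number at the end of a region's name was taken as the number of calls merged into it. Region width follows the caller's joining of enriched windows and depth, which is unknown. The authors' own comparison of pooled tag counts at 1.5-fold needs reads and was not made here.

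Here, positions were converted to 1-based and checked against chromosome lengths (0 regions past an end). Regions outside chromosomes 1 to 19, X and Y were left out (21 control, 14 csNrip1-/-). Regions overlapping by at least 1 bp were shared. Covered lengths were clipped to the windows, and 1.5-fold was used as the limit. The interval code was tested on simulated data. Python 3.11.15, scipy 1.17.1 and pysam 0.24.0 were used, with GENCODE M21 for genes and RefSeq (GRCm38) for sequences. The 10 genes and all lists were chosen with earlier results of these data known. Named besides them were the miRNAs and antisense genes in their windows, the listed partners and regulators past 1.5-fold, the 2 most changed stress genes each way and the 3 genes most like the member with the largest ratio. *Tnni3*, *Actc1*, *Myl7*, *Nppc*, *Sln*, *Cd68* and the endothelial and smooth muscle markers, and the genes next to a described region, were named after their values were seen. Alternatives changed the overlap, the width, the number of regions and the window.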

Additional observations from a re-analysis of the deposited data

How the results depend on the processing

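No paired analysis was possible because each list merges its replicates, and for the same reason no replicate could be left out. Against 9 csNrip1-/--only regions, the count was 5 of 20 with the gene body alone. It was 6 of 27 when gaps of up to 1000 bp counted as shared and 6 of 22 with regions at least 1000 bp wide. With 50% of the region covered it was 12 of 27, and with equal numbers of the widest regions 10 of 27. Against 5 control-only regions, the count was 13 of 27 with a reciprocal overlap of 50%. It was 3 of 27 with the gaps, 3 of 22 with regions at least 1000 bp wide and 3 of 23 with equal numbers. The shares of the whole lists under any alternative were not computed. Alternatives chosen after seeing the data gave 17 of 56 csNrip1-/--only and 11 of 53 control-only regions with 50 kb on each side, and 3 of 12 and 1 of 10 with regions of 3 or more calls. With the reciprocal overlap both counts were 13 of 27, so that the counts no longer differed. The count of genes over 1.5-fold longer was 1 in all 6 alternatives, *Tnni1* in 4 of them, *Ankrd1* with the gene body alone, where *Tnni1* had no control region, and *Myh7* within 2 kb of a start, where *Tnni1* had no csNrip1-/- region. That of genes over 1.5-fold shorter was 0 except with the gene body alone, where it was 1 (*Myh6*). The median log2 ratio stayed above 0 in all 6 alternatives, from 0.05 within 2 kb of a start to 0.27 with equal numbers. In those of the gene body alone and within 2 kb of a start, 3 of 6 genes were longer and 3 shorter, against 6 and 1 in the other 4. Causes were not tested. With no depth or signal per replicate, a region missing from a list may lie just below the caller's limit.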
